A study of Homo sapiens with 6 samples.

Results

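MicroRNA host genes are transcription units whose RNA contains the hairpins from which microRNAs are cut. They were taken by symbol, as every gene of the deposited table whose symbol starts with MIR, goes on in digits or capitals and ends in HG. This gave 57 of 33706 genes, of which 43 had enough counts to be tested and 14 did not. The symbols were checked against the annotated hairpins in RefSeq: 77 hairpins lay within the coordinates of 45 of the 57 genes, on the same strand. By the exons of the GENCODE v29 annotation, 48 of these hairpins lay in introns, 27 in exons and 2 across an exon edge. The RNA came from cultures of ES2, a human ovarian cancer line, collected on day 7, with 1 library in each of 6 groups. The Control culture had no drug, and the others were labelled as given T, G (spelled G4 in the descriptions), R, TR and GR. TR and GR are taken as R combined with T and with G, and T and G are taken as the oligos. The series deals with T-oligos, which are short DNAs that resemble the single-stranded end of a telomere, and with RHPS4, a small molecule that binds G-quadruplexes. Its labels do not say which letter stands for which. The sources used here state no doses, no oligo sequences and no number of wells per library.

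A host gene is transcribed as a long RNA. In the nucleus, DROSHA and its partner DGCR8 cut the hairpin out of that RNA, and DICER1 trims it in the cytoplasm to the mature microRNA. An Argonaute protein then uses bases 2 to 8 of the microRNA, its seed, to find complementary mRNAs and lower their output. The libraries measured here were made from RNA selected with oligo(dT), so they show the long host RNA and not the mature microRNA. In cancer cells several of these loci are well known: MIR17HG carries a cluster driven by MYC and E2F factors, MIR34AHG is a p53 target, MIR210HG responds to hypoxia and the let-7 microRNAs restrain growth genes such as the RAS genes and HMGA2.

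The microRNAs of the hosts described most fully below are printed from RefSeq (GRCh38.p14), with the seed in capitals, so that hosts with a shared seed can be recognised. Among the 45 hosts with a hairpin found, the let-7 seed was the most widely shared, by 6 hosts. No hairpin was found for the other 12, MIR4458HG, MIR155HG and MIR22HG among them, so their seeds were not read. MIRLET7IHG, on chr12:62602752-62622213 (plus strand), holds let-7i in an intron, MIRLET7A1HG on chromosome 9 holds let-7a, let-7f and let-7d, MIRLET7BHG on chromosome 22 holds let-7a and let-7b, MIR99AHG on chromosome 21 holds let-7c, MIR100HG on chromosome 11 holds let-7a, and MIR4500HG on chromosome 13 holds miR-4500.
hsa-let-7i-5p: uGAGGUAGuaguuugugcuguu
hsa-let-7a-5p: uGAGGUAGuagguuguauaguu
hsa-let-7f-5p: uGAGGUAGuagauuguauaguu
hsa-let-7d-5p: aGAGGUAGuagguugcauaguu
hsa-let-7b-5p: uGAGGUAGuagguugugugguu
hsa-let-7c-5p: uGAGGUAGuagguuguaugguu
hsa-miR-4500: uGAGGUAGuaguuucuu
The 3 other hosts that were called for R below carry 4 microRNAs. MIR222HG, on chrX:45745211-45851541 (minus strand), holds miR-221 and miR-222 in an intron. This pair shares a seed and is known for lowering the cell cycle inhibitor CDKN1B. MIR503HG, on chrX:134543119-134546642 (minus strand), holds miR-503 in an intron, and MIR600HG, on chr9:123109494-123115477 (minus strand), holds miR-600 in an exon.
hsa-miR-221-3p: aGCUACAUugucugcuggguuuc
hsa-miR-222-3p: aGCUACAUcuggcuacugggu
hsa-miR-503-5p: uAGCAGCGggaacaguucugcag
hsa-miR-600: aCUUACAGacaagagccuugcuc
MIR17HG on chr13:91347686-91397592 (plus strand) holds 6 exonic hairpins, whose main mature products fall into 4 seeds. The mature miR-31 of MIR31HG on chr9:21380073-21559891 (minus strand) is printed with them because that host stood on the other side of 0 for R.
hsa-miR-17-5p: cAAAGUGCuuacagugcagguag
hsa-miR-20a-5p: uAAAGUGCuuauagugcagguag
hsa-miR-18a-5p: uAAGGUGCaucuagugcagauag
hsa-miR-19a-3p: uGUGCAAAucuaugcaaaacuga
hsa-miR-19b-3p: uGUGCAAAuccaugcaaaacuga
hsa-miR-92a-3p: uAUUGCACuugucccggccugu
hsa-miR-31-5p: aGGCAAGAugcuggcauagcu

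The libraries held 73213048 to 83976498 counts in all, and between 23392 and 27859 genes had a count. Nothing in the labels states that the cultures were independent. With 1 library per group, a p-value here sets an effect against the departures of the 6 libraries from an additive model. Those departures hold any difference in the effect of R between no oligo, T and G. They also hold any spread between libraries, which may be technical, and the 2 cannot be told apart. The test moderates the spread of each gene with that of all genes tested, so no p-value rests on its own gene alone. ES2 stands in all titles, whereas SKOV3, another ovarian cancer line, stands as the source of G, R, TR and GR. ERBB2, which is amplified in SKOV3, stood between 0.146 and 0.721 FPKM in all 6 libraries, CDKN2A between 74.4 and 146 FPKM and MTAP, its neighbour, between 4.18 and 8.55 FPKM. Of the markers read for the line, the mesenchymal gene VIM (929 to 1920 FPKM) and the keratins KRT18 (62.9 to 249 FPKM) and KRT8 (15.2 to 38.9 FPKM) were present. The epithelial genes EPCAM and KRT19 and the ovarian carcinoma genes PAX8 and WT1 did not pass 0.252 FPKM. The 2 leukocyte markers in the table, PTPRC and CD14, summed to at most 0.194 FPKM. The endothelial pair, PECAM1 and CDH5, summed to 12.9 to 19.2 FPKM without R and to 5.78 to 10.4 FPKM with R. CDH5 made up nearly all of it, PECAM1 did not pass 0.113 FPKM, and the part of these genes in the results below was not tested.

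Most host genes were weakly expressed. FPKM, a fragment count divided by transcript length and library depth, reached 1 in a library for 13 of the 57 genes, and 44 stayed under 1 in all 6. MIR503HG had the highest mean level, with 11.3 FPKM in Control, 18.7 in T, 12.0 in G, 1.26 in R, 1.23 in TR and 4.68 in GR. MIR222HG came next, with 6.19, 8.47 and 6.18 FPKM in Control, T and G and 1.41, 1.96 and 2.21 FPKM in R, TR and GR. In both genes every library without R was above every library with R. The share of all genes that separate in this way was not counted. Such a separation, here or below, therefore does not set the hosts apart from other genes. MIR100HG, a host spanning 425407 bases that carries miR-100, miR-125b and let-7a, stood at 2.02, 4.32 and 2.58 FPKM without R and at 2.23, 1.14 and 1.75 FPKM with R, so that its groups overlapped. MIR155HG, host of a microRNA known from activated leukocytes, ranged from 0.579 FPKM in R to 5.02 FPKM in G. MIR22HG ranged from 0.0933 FPKM in R to 4.28 FPKM in G and 4.26 FPKM in GR. The mean FPKM of these genes over the 6 libraries was 8.19 for MIR503HG, 4.40 for MIR222HG, 2.34 for MIR100HG, 2.28 for MIR155HG and 2.26 for MIR22HG. The last 3 lay closer together than the spread of any one of them between libraries.

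**Figure D1:**
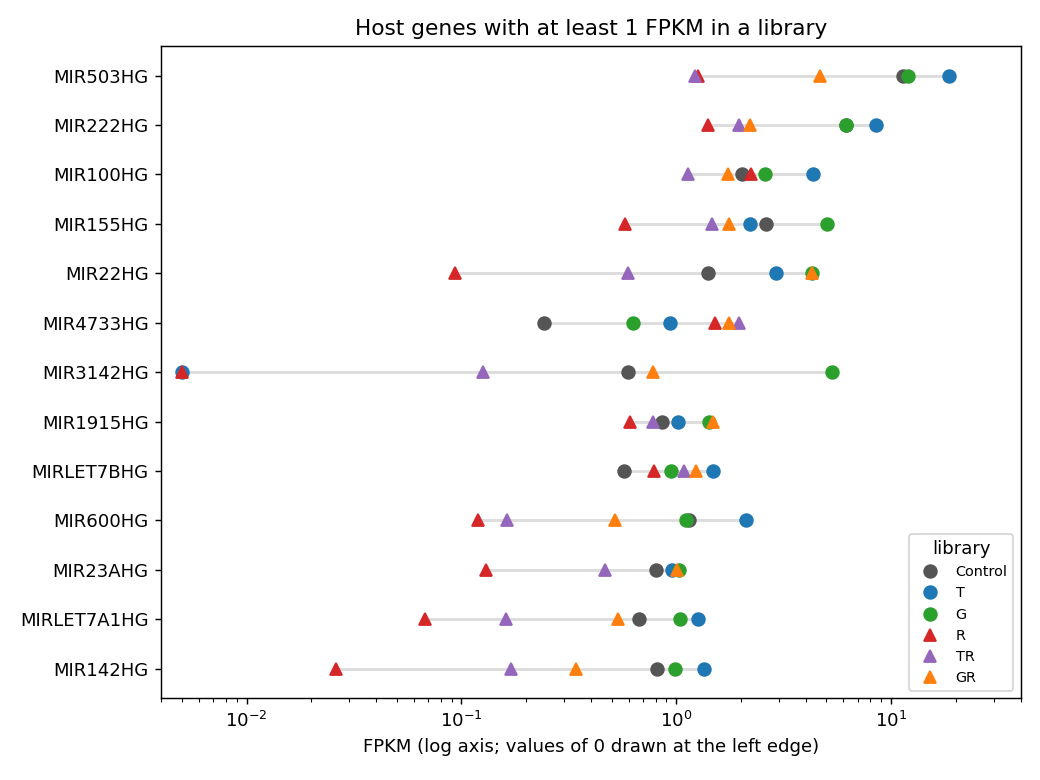
FPKM (log axis) of the 13 host genes that reached 1 FPKM in a library, ordered by their mean, with 1 point for each of the 6 libraries (circles without R, triangles with R; a value of 0 sits at the left edge). The triangles of MIR503HG, MIR222HG, MIR600HG, MIRLET7A1HG, MIR142HG and MIR155HG all lie to the left of their circles, and those of MIR4733HG all lie to the right.

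Together the 57 genes took 224 CPM (counts scaled to a common library total) in Control, 381 CPM in T and 306 CPM in G. The sums with R were 129 CPM in R, 111 CPM in TR and 192 CPM in GR. MIR100HG alone gave between 27.1% and 55.9% of these counts. Without it the sums were 160, 242 and 223 CPM without R and 56.8, 74.8 and 136 CPM with R. The summed level was thus lower in all 3 libraries with R than in all 3 without it, with and without MIR100HG. MIR503HG and MIR222HG, both called for R below, were also large parts of it, with 2928 and 3253 of the 18154 counts in Control. The sum without them was not read, so the lower sums do not show a fall across the hosts as a whole. In RNA from whole cultures, fewer cells that express a gene and less of its RNA per cell cannot be told apart.

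The effect of R was estimated over its 3 backgrounds (no oligo, T and G) with a single additive model. Of the 43 tested hosts, 4 fell with R and none rose at an adjusted p under 0.05 (edgeR quasi-likelihood test, Benjamini-Hochberg over 20922 genes). Among all tested genes 1.31% fell and 1.19% rose, and among the 4614 other long noncoding RNA genes 1.30% fell and 0.238% rose. At an unadjusted p under 0.05, 14 hosts were lower and 3 higher, beside 14.6% and 12.6% of all genes. The median log2 fold change of the hosts was -0.99, with 32 of 43 (74.4%) below 0. Over the other long noncoding RNA genes the median was -0.42 with 63.9% below 0, and over all genes tested it was -0.06 with 11084 of 20922 below 0.

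**Figure D2:**
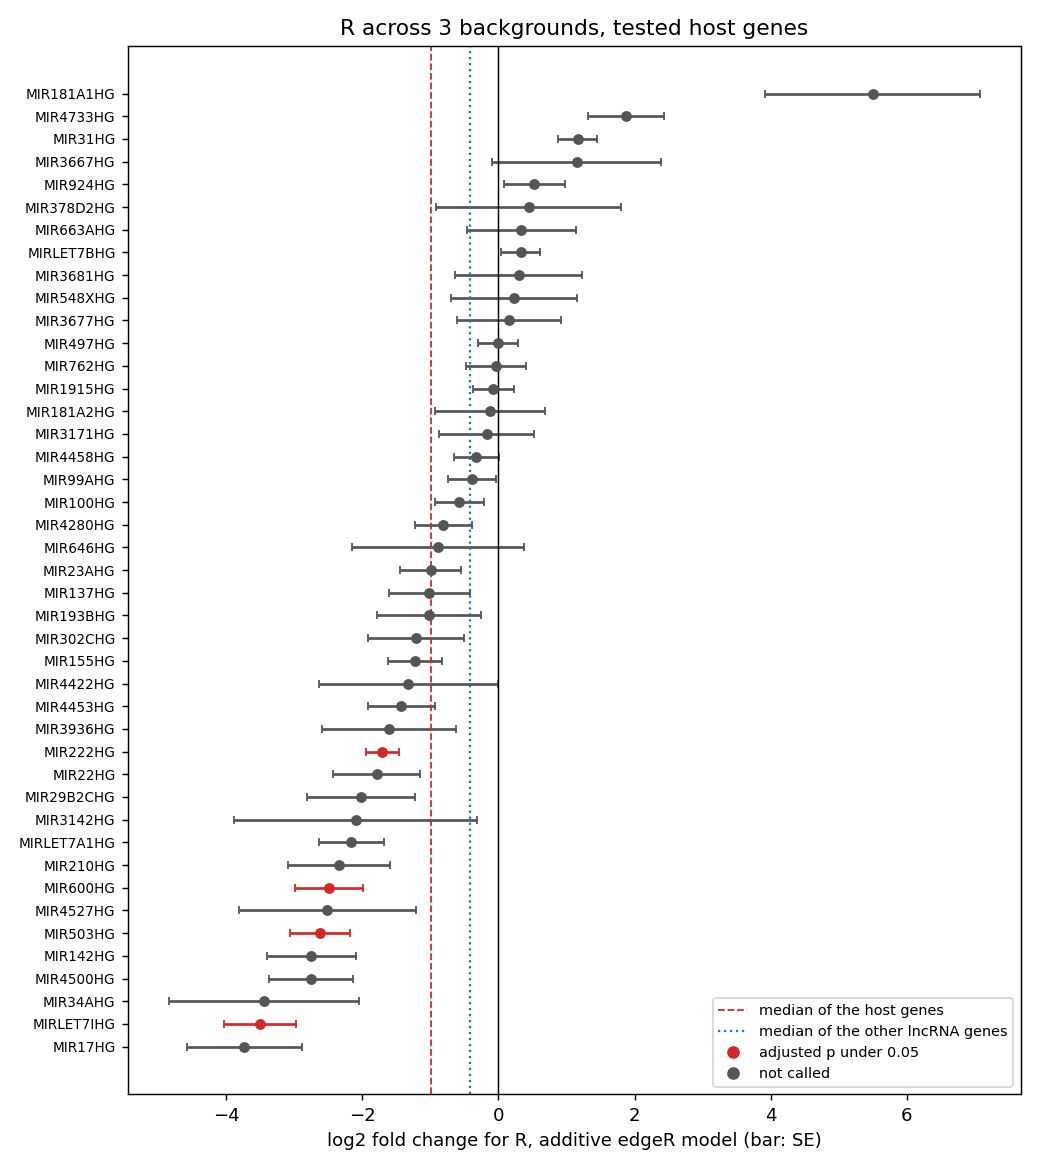
Log2 fold change for R from the additive edgeR model for each of the 43 tested host genes (points). Bars are standard errors (SE) worked back from the log2 fold change and the F statistic of the test. The 4 called genes are in red, and lines mark the medians of the hosts and of the other long noncoding RNA genes. Of the points, 32 lie below 0, from -3.73 for MIR17HG upwards, and 11 lie above 0, up to 5.50 for MIR181A1HG.

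MIR222HG had 3253 counts in Control, 4037 in T and 3169 in G, and 766, 1019 and 1210 counts in R, TR and GR. Its log2 fold change was -1.71 (SE 0.24, adjusted p = 0.0244). In counts scaled by TMM-adjusted library sizes, as in all ratios of scaled counts given here, it was 3.79-fold lower in R than in Control, 3.45-fold lower in TR than in T and 2.66-fold lower in GR than in G. The 3 backgrounds therefore gave sizes of the same order. R against Control and TR against T each set a library with the source name SKOV3 against one with ES2, so R cannot be told apart from that label there, while GR and G share a source name.

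MIRLET7IHG fell most among the called hosts. It had 186, 559 and 704 counts in Control, T and G and 12, 19 and 153 counts in R, TR and GR, a log2 fold change of -3.50 (SE 0.53, adjusted p = 0.0278). In scaled counts it was 13.8-fold lower in R than in Control and 25.6-fold lower in TR than in T, but 4.67-fold lower in GR than in G. Its 153 counts in GR came close to the 186 of Control, and the counts of the groups did not overlap.

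MIR503HG, whose microRNA has a seed close to that of the miR-16 family of cell cycle regulators, had 2928, 4374 and 3019 counts in Control, T and G and 338, 315 and 1260 counts in R, TR and GR. The log2 fold change was -2.62 (SE 0.44, adjusted p = 0.0362). It was 7.75-fold lower in R than in Control, 12.1-fold lower in TR than in T and 2.43-fold lower in GR than in G. MIR600HG showed the same order of backgrounds. It had 592, 984 and 557 counts without R and 64, 83 and 277 counts with R (log2 fold change -2.49, SE 0.50, adjusted p = 0.0464). The folds were 8.26, 10.3 and 2.04 lower in R, TR and GR against Control, T and G.

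**Figure D3:**
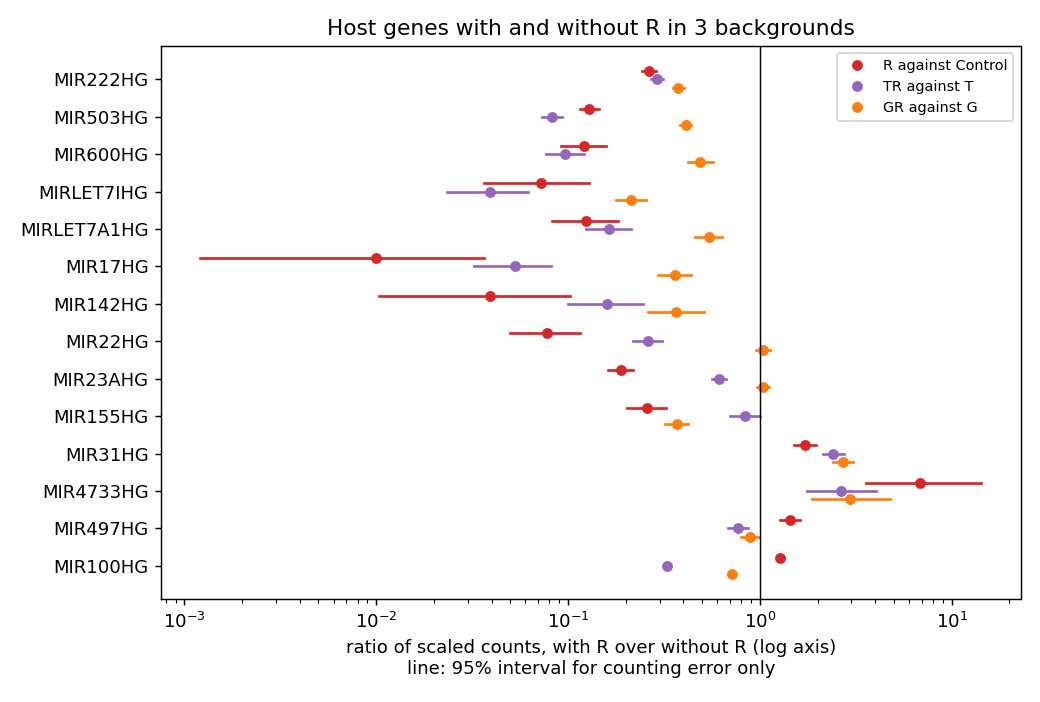
Ratio of scaled counts with R over without R (log axis) for 14 host genes in the 3 backgrounds, with lines for the 95% interval that covers counting error only. MIR222HG, MIR503HG, MIR600HG and MIRLET7IHG lie below 1 in every background, MIR31HG and MIR4733HG lie above 1 in every background, and MIR22HG and MIR23AHG lie below 1 in the first 2 backgrounds and at 1.04 for GR against G.

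The 4 calls rest on few libraries. None of them was called with the Control, T or TR library left out (0.289%, 0.319% and 0.298% of all genes tested were called, in either direction), and without the R library MIR222HG was the only host called (0.643%). Without the G library and without the GR library 15 hosts each were called (10.1% and 8.99%). With a term for the cell line in the source names no host was called (0.355% of 23071 genes). R was then estimated from GR against G alone, where the 4 hosts were 2.04-fold to 4.67-fold lower. That fit also tested another set of genes and left fewer residual degrees of freedom, and why the calls were lost was not tested. DESeq2 called 17 hosts (18.5%), 14 of them lower and these 4 among them. The same 4 hosts were called with median-ratio size factors (2.50%) and, in a setting chosen after seeing the data, with mitochondrially encoded genes left out (1.88%), but none without a filter on low counts (0.0712%). All of the 4 except MIR503HG overlap another gene on their own strand, namely STRBP for MIR600HG and unnamed genes for MIR222HG and MIRLET7IHG, so their counts are uncertain.

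The neighbours of the called hosts that could be tested did not pass. LINC00629, 3128 bases from MIR503HG on the other strand, had a log2 fold change for R of -0.86 (SE 0.36, adjusted p = 0.170). RABGAP1, 4628 bases from MIR600HG, had one of 0.13 (SE 0.23, adjusted p = 0.745). MON2, 2276 bases from MIRLET7IHG on the same strand, had one of -0.46 (SE 0.25, adjusted p = 0.276), and PPM1H on the far side of that host one of -0.04 (SE 0.26, adjusted p = 0.941). The genes nearest to MIR222HG had too few counts to be tested.

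The 6 hosts found to share the let-7 seed had estimates for R on both sides of 0. Hosts without a hairpin found were not searched for this seed. MIRLET7IHG was the only one called. MIRLET7A1HG, host of let-7a, let-7f and let-7d, had 270, 459 and 408 counts in Control, T and G and 30, 65 and 224 counts in R, TR and GR (log2 fold change -2.16, SE 0.48, adjusted p = 0.0545). MIR4500HG had 86, 94 and 132 counts without R and 4, 14 and 37 with R (log2 fold change -2.75, SE 0.62, adjusted p = 0.0553). In both the groups did not overlap, and neither passed the threshold. MIR100HG stood at -0.57 (SE 0.36, adjusted p = 0.329) and MIR99AHG at -0.39 (SE 0.36, adjusted p = 0.512). MIRLET7BHG, with 322, 754 and 513 counts without R and 457, 594 and 716 with R, stood at 0.33 (SE 0.29, adjusted p = 0.501). All of these hosts except MIRLET7A1HG overlap another gene on their own strand, such as PRR34-AS1 for MIRLET7BHG, so their counts are uncertain. Differences between these hosts were not tested.

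**Figure D4:**
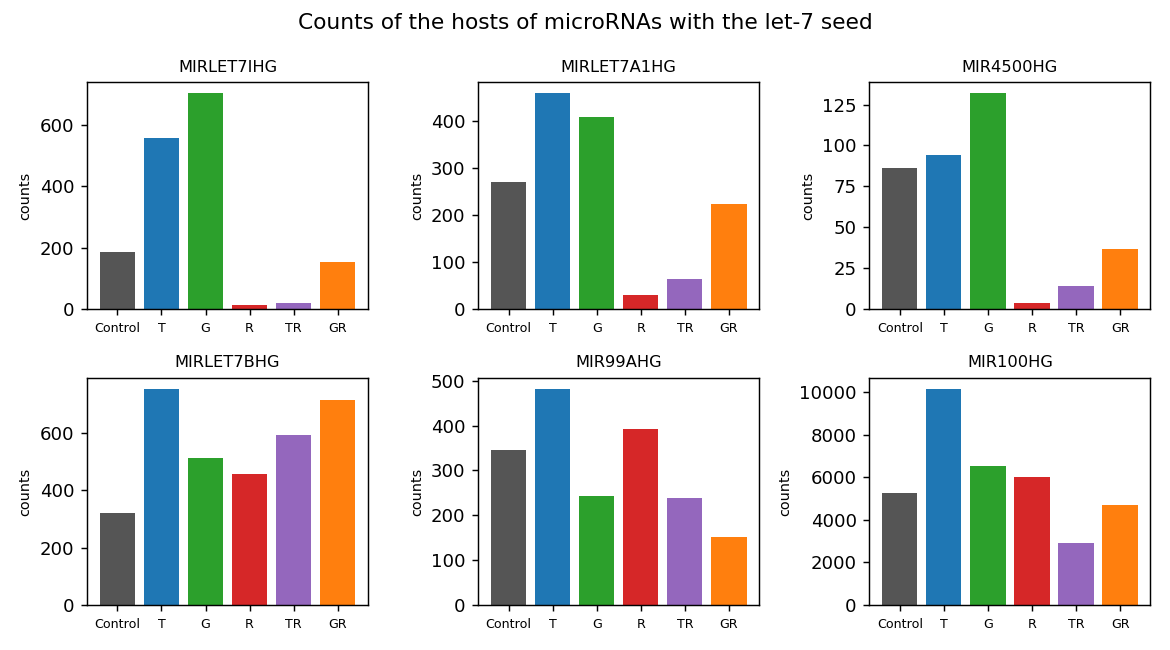
Counts per library (bars start at 0; each panel has its own scale) of the 6 host genes found to carry microRNAs with the let-7 seed. The R and TR bars of MIRLET7IHG, MIRLET7A1HG and MIR4500HG are short (4 to 65 counts), while those of MIRLET7BHG, MIR99AHG and MIR100HG are of the order of their other bars.

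Several hosts that did not pass the threshold had sizeable estimates, and those named from here to the end of the paragraph with levels under 1 FPKM were chosen after their values were seen. MIR17HG had 223, 456 and 399 counts in Control, T and G, and 2, 21 and 146 in R, TR and GR. Its estimate was the lowest of all hosts (log2 fold change -3.73, SE 0.84, adjusted p = 0.0553). In scaled counts the R library was 100.0-fold under Control, with a counting interval of 27.2 to 826, TR was 18.9-fold under T and GR was 2.78-fold under G. GPC5, which starts 1029 bases beyond it, stood at -0.13 (SE 0.62, adjusted p = 0.920). MIR142HG, whose microRNA is best known from blood cells, had 115, 173 and 137 counts without R and 4, 24 and 51 with R (-2.75, SE 0.66, adjusted p = 0.0599). MIR210HG, host of the hypoxia-induced miR-210, had 140, 46 and 99 counts without R and 5, 15 and 36 with R (-2.35, SE 0.75, adjusted p = 0.0998). MIR34AHG had 12, 51 and 79 counts without R, none in R or TR and 46 in GR (-3.45, SE 1.40, adjusted p = 0.159). Against a floor of 3 counts in the library, TR was at least 14.8-fold lower than T. The counts of MIR17HG, MIR142HG and MIR210HG did not overlap between the groups, and those of MIR34AHG did. The share of all genes without such an overlap was not counted.

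Some hosts had the opposite sign. MIR31HG, a long noncoding RNA beside the CDKN2A locus, had 391, 370 and 382 counts in Control, T and G and 601, 776 and 1048 counts in R, TR and GR (log2 fold change 1.16, SE 0.28, adjusted p = 0.0608). It overlaps IFNE and SNORD39 on its own strand, so its counts are uncertain. KLHL9, its nearest neighbour outside the host, stood at -0.59 (SE 0.24, adjusted p = 0.161). MIR4733HG had 11, 36 and 26 counts without R and 67, 83 and 78 with R (1.88, SE 0.56, adjusted p = 0.0862). MIR181A1HG, one of the hosts of miR-181a and miR-181b, had no count in Control or T, 2 in G, 75 in R, 49 in TR and 7 in GR (5.50, SE 1.58, adjusted p = 0.0800). Against a floor of 3 counts in the library, R stood at least 28.0-fold higher than Control, and TR stood at least 18.8-fold higher than T. None of the 3 passed the threshold, and in each the lowest library with R lay above the highest without it. MIR31HG and MIR181A1HG were also named after their values were seen.

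In another group of hosts the GR library did not share the low level of R and TR. MIR22HG had 377, 707 and 1122 counts in Control, T and G, 26 in R, 160 in TR and 1187 in GR. It was 12.9-fold lower in R than in Control and 3.85-fold lower in TR than in T, but 1.04 times G in GR, with a counting interval of 0.959 to 1.13. MIR23AHG, which carries miR-23a, miR-27a and miR-24-2 in exonic sequence, had 1311, 1412 and 1639 counts without R and 220, 752 and 1723 with R. It was 5.32-fold lower in R than in Control, 1.63-fold lower in TR than in T, and 1.04 times G in GR. MIR29B2CHG, chosen after its values were seen, had 45, 161 and 90 counts without R and 3, 20 and 97 with R. Over the 3 backgrounds none of these was called for R: the log2 fold change was -1.79 (SE 0.64, adjusted p = 0.125) for MIR22HG, -0.99 (SE 0.45, adjusted p = 0.193) for MIR23AHG and -2.01 (SE 0.79, adjusted p = 0.151) for MIR29B2CHG. With 1 library per group the difference between backgrounds had no test, and it cannot be told apart from the source names, which differ in R against Control and TR against T but not in GR against G. TLCD2, 1070 bases from MIR22HG, had 163, 574 and 263 counts without R and 247, 323 and 299 with R.

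The remaining hosts with at least 1 FPKM in a library gave smaller or less even differences. MIR155HG had 401, 306 and 748 counts without R and 92, 223 and 280 with R (-1.22, SE 0.40, adjusted p = 0.104), without overlap between the groups. MIR3142HG, which carries the NF-kB-induced miR-146a in an exon, was the least even, with 122 counts in Control, none in T, 1053 in G, none in R, 26 in TR and 166 in GR (-2.10, SE 1.79, adjusted p = 0.484). MIR100HG had 5243, 10165 and 6529 counts without R and 5995, 2918 and 4723 with R. R was 1.28 times Control, while TR was 3.03-fold under T. MIR1915HG stood at -0.07 (SE 0.30, adjusted p = 0.900), with 300, 324 and 485 counts without R and 221, 268 and 537 with R. Of the other tested hosts, which stayed under 1 FPKM and are not named above, the estimates ran from -2.51 for MIR4527HG to 1.15 for MIR3667HG, none of them called, and these extremes were picked by their values.

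The 14 hosts without a test had at most 31 counts in a library. They were MIR583HG, MIR5689HG, MIR3150BHG, MIR130AHG, MIR3659HG, MIR365BHG, MIR2052HG, MIR133A1HG, MIR4300HG, MIR219A2HG, MIR3945HG, MIR4307HG, MIR4432HG and MIR4713HG. In the smallest library, 0 counts leave room for a share of at most 4.1e-06% (3 counts), a limit for counting error only. The highest value was the 31 counts of MIR130AHG in GR, where Control and T had none, and these levels were too low to compare.

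The pairs of libraries were also compared by the log2 ratio of FPKM + 1, which understates changes of low genes, with no test since each group had 1 library. Of the 13 hosts at 1 FPKM or more, R against Control had 4 that were 2-fold lower (6.61% of 13259 genes) and 1 that was 2-fold higher (2.68%), the latter MIR4733HG. TR against T had 6 lower (11.2%) and none higher (5.67%). GR against G had 4 lower (2.07%) and none higher (1.30%). MIR503HG and MIR222HG were lower in all 3. MIR155HG was 2-fold lower in R and GR, MIR22HG in R and TR, MIR600HG, MIR142HG and MIR100HG in TR, and MIR3142HG in GR.

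T and G were each measured without and with R. For T, none of the 43 hosts was called, and 1 gene of all those tested was (0.00478% higher, 0.0% lower). No host passed an unadjusted p under 0.05 for T, which 2.65% of genes did as higher and 1.02% as lower. The median log2 fold change for T was 0.33 over the hosts, 0.26 over the other long noncoding RNA genes and 0.02 over all genes. The estimate nearest to the threshold was that of MIR29B2CHG (1.97, SE 0.89, unadjusted p = 0.0550), and DESeq2 called no host for T (0.108% of genes in either direction).

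For G, none of the hosts was called at an adjusted p under 0.05, beside 0.0239% of all genes called higher and 0.00956% called lower. At an unadjusted p under 0.05, 8 hosts were higher and 1, MIR99AHG, was lower, beside 7.38% and 4.53% of all genes. DESeq2 called 4 hosts higher for G (MIR22HG, MIR17HG, MIR34AHG and MIRLET7IHG), beside 2.35% of genes in either direction. With the G library left out, and with the cell line term, 7 hosts were called higher (1.52% and 1.53%). The median log2 fold change for G was 0.83 over the hosts, 0.47 over the other long noncoding RNA genes and 0.09 over all genes. MIRLET7IHG stood at 2.61 (SE 0.62, adjusted p = 0.279) and MIR22HG at 3.21 (SE 0.81, adjusted p = 0.285). In scaled counts MIR22HG was 2.63 times higher in G than in Control, and GR was 35.5 times R. MIRLET7IHG was 3.35 times higher in G than in Control and 9.92 times higher in GR than in R. MIR3142HG was 7.64 times higher in G than in Control, with its 1053 counts in G the highest of its libraries. Control and T have another source name than G and GR, so G against Control cannot be told apart from that difference in the labels.

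In the FPKM + 1 comparison, T against Control and TR against R gave no host at 2-fold, beside 2.40% and 0.460% of genes higher and 2.30% and 0.385% lower. G against Control gave 2 hosts higher, MIR22HG and MIR3142HG (3.27%), and none lower (0.453%). GR against R gave 2 higher, MIR22HG and MIR503HG (6.21%), and none lower (1.09%). GR against R lies within 1 source name.

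The hairpins themselves were all but unmeasured in these libraries. Of the 77 hairpins 49 had a row of their own in the table, and only MIR503 reached 10 counts in a library. It had 25 counts in Control, 143 in T, 50 in G, none in R or TR and 16 in GR, so that all 3 libraries without R lay above those with R, as for MIR503HG around it. The hairpin lies in the span of its host, and the sources used here do not state how reads were divided between the rows. By place of the hairpin, the 9 tested hosts with exonic hairpins only had a median log2 fold change for R of -2.01, and the 21 with intronic hairpins only had one of -0.81. The 3 tested hosts with both kinds, MIR3142HG, MIRLET7BHG and MIR3677HG, had one of 0.15. These medians describe the hosts and were not compared by a test.

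The genes that make and use microRNAs were read beside the hosts. Of 32 tested genes for processing and silencing, 1 fell with R and none rose, beside 1.31% and 1.19% of all tested genes. The median log2 fold change was -0.16, against -0.06 over all genes. The gene that fell was DGCR8, the RNA-binding partner of DROSHA, with 3.71, 4.61 and 5.76 FPKM in Control, T and G and 0.355, 0.621 and 3.10 FPKM in R, TR and GR (-2.19, SE 0.44, adjusted p = 0.0470). Its GR level lay just under its Control level. The next largest estimates were -1.06 for DICER1 (SE 0.33, adjusted p = 0.0960), -0.98 for DDX17 (SE 0.23, adjusted p = 0.0561), a helicase of the DROSHA complex, and -0.84 for AGO4 (SE 0.26, adjusted p = 0.0940). DROSHA stood at 0.01 and AGO2 at -0.13, and both were named for their role after their values were seen. For T and for G no gene of this list was called.

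Other genes that carry microRNAs but bear names of their own were compared with the hosts. Of 39 tested, 2 fell with R and none rose (median -0.11), beside 1.31% and 1.19% of all genes (median -0.06). SREBF1, a regulator of lipid synthesis that carries miR-33b, fell, with 14.5, 15.7 and 15.6 FPKM without R and 3.69, 5.55 and 8.16 FPKM with R (-1.26, SE 0.25, adjusted p = 0.0461). PANK3, a pantothenate kinase that carries miR-103a, fell too, with 4.81, 8.59 and 10.6 FPKM without R and 2.32, 2.37 and 4.63 FPKM with R (-1.17, SE 0.24, adjusted p = 0.0470). It overlaps another gene on its strand, and in both genes the groups did not overlap. The largest estimates beside these were 1.75 for TRPM3 (SE 1.77, adjusted p = 0.558), which stayed near 0 FPKM, and 1.17 for EGFL7 (SE 0.32, adjusted p = 0.0738), the host of miR-126. MIR4435-2HG, a host that the symbol rule leaves out for its hyphen, stood at 1.26, 0.775 and 1.14 FPKM without R and 1.41, 1.42 and 1.54 FPKM with R (0.69, SE 0.25, adjusted p = 0.125). The other 6 hyphenated hosts stayed under 1 FPKM.

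Among factors known to drive hosts, 1 of 17 tested rose with R and none fell (median 0.29). Of all genes 1.19% rose and 1.31% fell (median -0.06). JUNB, an AP-1 subunit, rose, with 16.8, 23.8 and 29.8 FPKM without R and 43.3, 66.2 and 46.5 FPKM with R (1.36, SE 0.27, adjusted p = 0.0463). FOS (3.74, SE 0.87, adjusted p = 0.0576), EGR1 (-1.52, SE 0.36, adjusted p = 0.0579) and STAT3 (1.01, SE 0.22, adjusted p = 0.0519) did not pass. MYC, the known driver of the cluster in MIR17HG, stood at 59.9, 62.5 and 47.5 FPKM without R and 94.6, 107 and 54.2 FPKM with R (0.75, SE 0.23, adjusted p = 0.0952). E2F1 stood at 0.03 (SE 0.26, adjusted p = 0.960), and both were named for their role in the cluster after their values were seen.

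The targets of HIF, the hypoxia factor that induces miR-210, and of p53, which induces miR-34a, were read beside their hosts. Of 14 tested HIF targets 2 rose with R and none fell (median 0.33), beside 1.19% and 1.31% of all genes (median -0.06). SLC2A1, the glucose transporter GLUT1, had 13.4, 7.00 and 11.2 FPKM without R and 25.9, 32.2 and 31.8 FPKM with R (1.75, SE 0.30, adjusted p = 0.0369), and NDRG1 was the other (1.15, SE 0.23, adjusted p = 0.0467). Both overlap another gene on their strand. ADM, the adrenomedullin gene, stood at 1.96 (SE 0.50, adjusted p = 0.0671) and LDHA at 0.64 (SE 0.28, adjusted p = 0.182). MIR210HG, with its estimate of -2.35, lay on the other side of 0. Of 17 tested p53 targets 1 rose and none fell (median -0.26), beside the same shares of all genes. The 1 that rose was CDKN1A, the cell cycle inhibitor p21, with 1.49, 1.21 and 3.42 FPKM without R and 3.30, 5.25 and 6.63 FPKM with R (1.60, SE 0.33, adjusted p = 0.0489). MIR34AHG had no count in R or TR but 46 in GR, against 12 in Control, 51 in T and 79 in G. GDF15 (2.17, SE 0.63, adjusted p = 0.0817), SESN2 (-1.35, SE 0.36, adjusted p = 0.0702) and PLK3 (1.26, SE 0.30, adjusted p = 0.0579) did not pass. For T and for G no gene of these lists was called.

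Because the series concerns G-quadruplex ligands, the promoters of the hosts were searched for the usual letters of such a structure, which are 4 runs of GGG with 1 to 7 bases of any kind between them, on either strand. RefSeq promoters of 300 bases (250 before to 50 after the start) were found for 44 hosts, and 10 of them (22.7%) held the motif, against 24.9% of all 35116 promoters. Of the 37 tested hosts with a promoter, the 7 with the motif had a median log2 fold change for R of -1.02, from -2.75 to 1.16, and the 30 without it had one of -1.11, from -3.73 to 5.50. The median GC content was 71.3% with the motif and 56.3% without it. No promoter of the 4 called hosts held these letters in the window. A single RefSeq promoter was read per host, and some windows lie inside the gene, away from the start given in the deposited coordinates. This was so for MIR222HG (chrX:45770218-45770517) and MIR100HG. Those of MIR31HG, at chr9:21559749-21560048, and of MIR210HG, at chr11:568408-568707 (both minus strand, GRCh38.p14), held 1 run of the motif on the gene's own strand and are shown with it in capitals, since these hosts had estimates of opposite sign.
MIR31HG: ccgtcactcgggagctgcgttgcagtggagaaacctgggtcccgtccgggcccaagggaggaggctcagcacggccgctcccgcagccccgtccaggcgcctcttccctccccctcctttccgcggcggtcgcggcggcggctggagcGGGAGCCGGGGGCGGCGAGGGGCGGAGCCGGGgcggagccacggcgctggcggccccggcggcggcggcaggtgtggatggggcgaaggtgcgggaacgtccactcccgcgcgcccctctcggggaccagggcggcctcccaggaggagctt
MIR210HG: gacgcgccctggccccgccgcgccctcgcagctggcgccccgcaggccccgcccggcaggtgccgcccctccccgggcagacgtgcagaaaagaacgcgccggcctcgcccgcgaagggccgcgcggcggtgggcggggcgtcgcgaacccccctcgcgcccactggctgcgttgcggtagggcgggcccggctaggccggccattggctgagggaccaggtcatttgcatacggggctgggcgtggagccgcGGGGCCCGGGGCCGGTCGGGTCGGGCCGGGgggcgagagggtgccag
A match of letters is a description of the sequence and not a measured structure. The motif in MIR31HG spans 32 bases and that in MIR210HG spans 30.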

How the data were processed

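RNA was measured in 6 libraries, 1 for each group, with groups taken from the sample titles. Per the labels' protocols, oligo(dT)-selected RNA was made into dUTP strand-marked, paired-end libraries. Without stating roles, edgeR, DESeq2, StringTie 2.1.6, HISAT2 2.2.1 and cutadapt 1.9 are named in the submitters' processing notes. The genome build, and whether strand was used in counting, were not given in the sources used here. GENCODE v29 holds 92.57% of the table's gene IDs, and 99.94% of these overlap on the same strand in GRCh38, so the table's coordinates are printed as GRCh38. The authors deposited whole-number counts per gene, used as they stand. They also deposited FPKM per gene, per the file headers. In the hairpin rows 127 of 294 deposited counts were exactly 1, some beside an FPKM of 0, so the lowest counts may have been rounded up. Library totals are in the report, and intervals (exact, 95%) and floors (3 counts) cover counting error only, since the labels mention no molecular identifiers.

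Counts of the whole table were fitted with edgeR 4.0.16 in R 4.3.3 (TMM scaling, filterByExpr, additive model of oligo and R, quasi-likelihood test, Benjamini-Hochberg over 20922 genes, threshold 0.05, 2 residual degrees of freedom). The SE printed with an edgeR estimate is the absolute log2 fold change divided by the square root of the F statistic of its test. Pairs were compared by log2(FPKM + 1) among 13259 genes that reached 1 FPKM, and by counts scaled with TMM-adjusted library sizes. Alternatives were DESeq2 1.42.0, other size factors, no filter, a cell line term, a pseudocount of 0.1, each library left out and, added after seeing the data, no mitochondrial genes. Hosts that reached 1 FPKM or were called were named with values, and of each list the called genes and the 4 largest estimates for R. The members and lists were chosen with earlier results of these data known. Sequences are from RefSeq (GRCh38.p14). Mature sequences were found for 45 hosts and promoters for 44.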

Additional observations from a re-analysis of the deposited data

Results flagged for a closer look

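For 4 hosts the ratio of scaled counts for the same contrast had opposite directions in 2 backgrounds, by at least 1.5-fold on each side and with counting intervals on opposite sides of 1. Pairs with a library at 0 were not read. How many of all genes meet the same rule was not counted, so this number does not set the hosts apart. MIR100HG was 1.89 times Control in T (interval 1.83 to 1.96), and 0.487 times R in TR (0.466 to 0.509). MIR210HG was 0.320 times Control in T (0.225 to 0.450), and 3.00 times R in TR (1.04 to 10.6). It was 0.626 times Control in G (0.479 to 0.815), and 5.60 times R in GR (2.19 to 18.3), where R had 5 counts. MIR3936HG was 2.87 times Control in T (1.68 to 5.12), and 0.250 times R in TR (0.0453 to 0.927), where TR had 3 counts. MIR3681HG was 2.21 times Control in G (1.16 to 4.45), and 0.182 times R in GR (0.0851 to 0.356). For R it was 3.76 times Control (2.04 to 7.40), and GR was 0.310 times G (0.142 to 0.624), with 11 to 47 counts in these 4 libraries. With 1 library per group these differences between backgrounds were not tested, and the intervals cover counting error only. MIR100HG overlaps BLID on its own strand, so its counts are uncertain.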

How the results depend on the processing

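The number of hosts called for R (4) was 4 with median-ratio size factors and 4 without mitochondrial genes, 17 with DESeq2, 0 without a filter on low counts and 0 with a cell line term. Leaving out 1 library each gave 0 to 15. For G the 0 calls became 4 with DESeq2 and 7 with the cell line term, and leaving out 1 library each gave 0 to 7, the 7 arising without the G library (MIR22HG, MIR29B2CHG, MIR17HG, MIR34AHG, MIRLET7IHG, MIR23AHG and MIRLET7A1HG). For T the count was 0 in every setting run. Leaving out a library takes its whole pair out of the estimate of R, and without a filter 33706 genes were adjusted for.

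Of 2-fold hosts, with 0.1 as the pseudocount and with counts scaled by median-ratio size factors in turn, R against Control went from 5 to 10 and 10, T against Control from 0 to 4 and 3, TR against R from 0 to 5 and 6, and GR against R from 2 to 9 and 8. The counts for TR against T, GR against G and G against Control stayed within 1.5 times. For neither the 0.1 pseudocount nor the median-ratio scaling was the share of all genes at 2-fold read. These changes in number therefore do not set the hosts apart from other genes. Some estimates for R changed sign with the cell line term, to 0.13 for MIR1915HG, 0.068 for MIR22HG, 0.059 for MIR23AHG and 0.095 for MIR29B2CHG. With 1 library left out each, MIR1915HG ran from -0.18 to 0.034, above 0 without the Control library (0.034) and without the R library (0.032). Larger moves kept their sign. Estimates for R ran from -2.76 to -0.92 for MIR22HG, from -1.55 to -0.32 for MIR23AHG, from -5.07 to -2.78 for MIR17HG, from -1.04 to -0.062 for MIR100HG and from -3.97 to -0.086 for MIR3142HG. The values nearest to 0 came without the T or TR library for MIR100HG and without the Control or R library for the others. Over single hosts and settings, 259 estimates kept their direction and side of the threshold, 53 came past it, 23 fell short of it and 6 changed sign. These numbers cover 22 hosts for R and 9 for G, out of 43 tested. Changes of sign among the hosts left out were not counted, and other causes were not tested. No paired analysis was possible because the labels give no replicate numbers, and the model already compares R within each background. Low levels limit most hosts, since 44 of 57 stayed under 1 FPKM.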
